A study of Mus musculus with 6 samples.

Results

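Sgk1 and 7 other genes of corticosteroid, thyroid hormone and metal response (Dio1, Tsc22d3, Fkbp5, Hsd11b1, Hsd11b2, Mt1 and Mt2) were followed in the small intestine of mice without Cftr. They were taken as every probe set annotated with exactly one of these symbols, which gave 9 probe sets for the 8 genes, of 12422 probe sets and 8251 named genes on the array. Hsd11b2 had 2 probe sets and each of the others had 1. The genes were chosen on the null against control values of these same mice, so those values are given as a description, without p-values. Where a gene stood against the threshold of the fit over all probe sets is stated as part of that description and is no independent test. Of the 9 probe sets, 6 (1 each for Sgk1, Fkbp5, Hsd11b1, Dio1, Mt1 and Mt2) passed the filter on dim values, which asked for an intensity above 109.7 in at least 3 of the 6 mice. The other 3, those of Tsc22d3 and Hsd11b2, did not.

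The samples were RNA of the whole small intestine of 3 Cftr null (-/-) and 3 Cftr control (+/+) mice, 1 mouse per 1-colour Affymetrix array. All were 40 days old and congenic on the black6 background, and both genotypes had received Peptamen, a liquid diet, since day 10 after birth. Each genotype had 2 males and 1 female, and the females were null replicate 2 and control replicate 3. Cftr, the gene mutated in cystic fibrosis, encodes an anion channel that epithelia use to secrete chloride and bicarbonate. Which part of the gene the null allele alters is not stated in the labels. The 2%-trimmed mean was 500.3 on every array. The enterocyte markers were bright in every mouse: 7 of the 9 listed (Fabp1, Fabp2, Vil1, Lct, Apoa4, Apoa1 and Anpep) were on the array, and their summed intensity was 58263.5 to 96533.8 in null and 105006.2 to 127801.4 in control mice. None was at 0. Whether fewer cells of a type or less RNA per cell lay behind a lower value cannot be told apart in whole tissue.

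Corticosteroids act through the glucocorticoid and mineralocorticoid receptors, which enter the nucleus when they bind hormone and switch on target genes through DNA elements. Sgk1 is a kinase gene induced in this way, and in epithelia its product raises the activity of sodium channels and exchangers. Tsc22d3, which encodes the leucine zipper protein GILZ, and Fkbp5, which encodes an Hsp90 co-chaperone that dampens the receptor, are classic glucocorticoid targets. The enzyme of Hsd11b1 regenerates active glucocorticoid inside cells and that of Hsd11b2 inactivates it. Dio1 encodes a selenoenzyme that converts the prohormone thyroxine to the active hormone T3. Mt1 and Mt2 encode small zinc-binding proteins whose genes respond to metals and to glucocorticoids.

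The promoter windows of Sgk1, Mt2 and Mt1 are shown because they carry the textbook elements of the responses named above. The windows are RefSeq's, on the build GRCm38.p6, from 250 bases before to 50 bases after a transcript start, 5′ to 3′ on the gene's strand. Of the 8 genes, 7 had such windows, 14 in all, of which 6 were of alternative starts of Sgk1. Capitals mark in Sgk1 (chr10:21993640-21993939, + strand) the full glucocorticoid response element, searched for as AGAACA, then any 3 bases, then TGTTCT. In Mt2 (chr8:94172368-94172667, + strand) and Mt1 (chr8:94178839-94179138, + strand) they mark the metal response cores TGCACNC and TGCGCNC on either strand.
Sgk1: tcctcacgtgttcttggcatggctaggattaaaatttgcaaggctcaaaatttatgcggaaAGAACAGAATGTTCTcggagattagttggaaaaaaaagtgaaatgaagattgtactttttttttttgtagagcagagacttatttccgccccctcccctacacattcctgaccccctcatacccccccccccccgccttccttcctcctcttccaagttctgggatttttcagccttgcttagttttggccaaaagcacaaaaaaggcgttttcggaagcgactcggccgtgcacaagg
Mt2: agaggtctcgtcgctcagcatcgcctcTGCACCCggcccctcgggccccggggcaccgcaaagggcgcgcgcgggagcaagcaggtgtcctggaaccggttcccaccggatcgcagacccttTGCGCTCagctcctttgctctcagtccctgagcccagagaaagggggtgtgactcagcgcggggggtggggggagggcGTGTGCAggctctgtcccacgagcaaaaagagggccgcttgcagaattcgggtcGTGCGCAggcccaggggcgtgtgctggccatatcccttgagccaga
Mt1: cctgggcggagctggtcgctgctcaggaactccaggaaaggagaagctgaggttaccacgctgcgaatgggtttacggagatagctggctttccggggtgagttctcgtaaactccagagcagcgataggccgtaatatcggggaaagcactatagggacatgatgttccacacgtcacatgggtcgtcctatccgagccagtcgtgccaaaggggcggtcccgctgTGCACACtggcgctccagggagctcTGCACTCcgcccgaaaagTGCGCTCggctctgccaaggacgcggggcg

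The element in the Sgk1 window read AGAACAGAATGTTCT and began 189 bases before that transcript start. The element, with any 3 bases in its middle, was found in 3 of all 32851 windows (0.00913%), and in 0 of the other 13 windows of these genes. The shorter element TGTTCT, which the full one contains, was in 19.0% of all windows, among them 3 of the 6 for Sgk1 and 1 of the 3 for Tsc22d3. Mt2 held 4 metal response cores and Mt1 held 3. At least 1 core was in 25.7% of all windows, at least 3 in 1.97% and at least 4 in 0.517%. The thyroid hormone direct repeat, 2 copies of AGGTCA in the same direction with any 4 bases between them, was in 0.0152% of windows and in none of these genes, the Dio1 window included. The single element AGGTCA was in 16.3% of windows, 2 of the 6 for Sgk1 among them. A match is a string of letters in this window and was not tested for binding, and distant elements lie outside it.

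Sgk1 was far lower in null intestines. It was at 378.6, 655.7 and 1726.2 in null replicates 1 to 3, against 4750.6, 5728.7 and 4561.9 in control replicates 1 to 3. Every null mouse lay below every control mouse, and null replicate 3 lay apart from the other nulls. The means were 920.2 ± 711.7 in null and 5013.7 ± 626.3 in control mice (SD, n = 3 each). The fitted log2 change was -2.70 (SE 0.47), a 6.51-fold lower level, the 15th largest fall among the probe sets tested. Fold changes here are on the log2(intensity + 12) scale, which understates the change of dim genes.

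Dio1 was lower as well. It was at 74.9, 210.0 and 59.4 in null replicates 1 to 3, against 761.2, 640.7 and 1121.4 in control replicates 1 to 3. The groups did not overlap, and the female of each genotype, null replicate 2 and control replicate 3, had the highest value of its group. The means were 114.8 ± 82.8 in null and 841.1 ± 250.1 in control mice (SD, n = 3 each). The null mean lay under the filter level on the log scale, so Dio1 is given as at least 6.82-fold lower (log2 change -2.90, SE 0.42), the 12th largest fall. Liver and kidney are the organs best known for this enzyme, and markers of both were dim in these samples. Of the 5 liver markers on the array, Ttr passed the filter, at 122.7, 133.7 and 143.2 in null replicates 1 to 3, against 157.7, 94.9 and 199.9 in control replicates 1 to 3. The other liver markers (Alb, Ahsg, Apoh and Fga) and all 4 kidney markers stayed under 109.7 in every mouse.

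In the limma fit over all 7601 probe sets tested, Sgk1 and Dio1 were past the threshold, an adjusted p under 0.05 after Benjamini-Hochberg adjustment, and both were lower in null. That is 2 of the 6 tested probe sets of these genes, with 0 higher. Over all probe sets, 3.0% were past the threshold in either direction with 1.87% lower and 1.13% higher in null. The genes were picked with this contrast known, so nothing is read from that count. The groups did not overlap in the same 2 of 6, against 23.8% of all probe sets tested. The Sgk1 call was lost without control replicate 1, 2 or 3 and without null replicate 1 or 2, and of the 6 mice left out in turn it held without null replicate 3. It was also lost with males only and without a variance trend. The Dio1 call was lost without control replicate 1 and without null replicate 1.

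**Figure D1:**
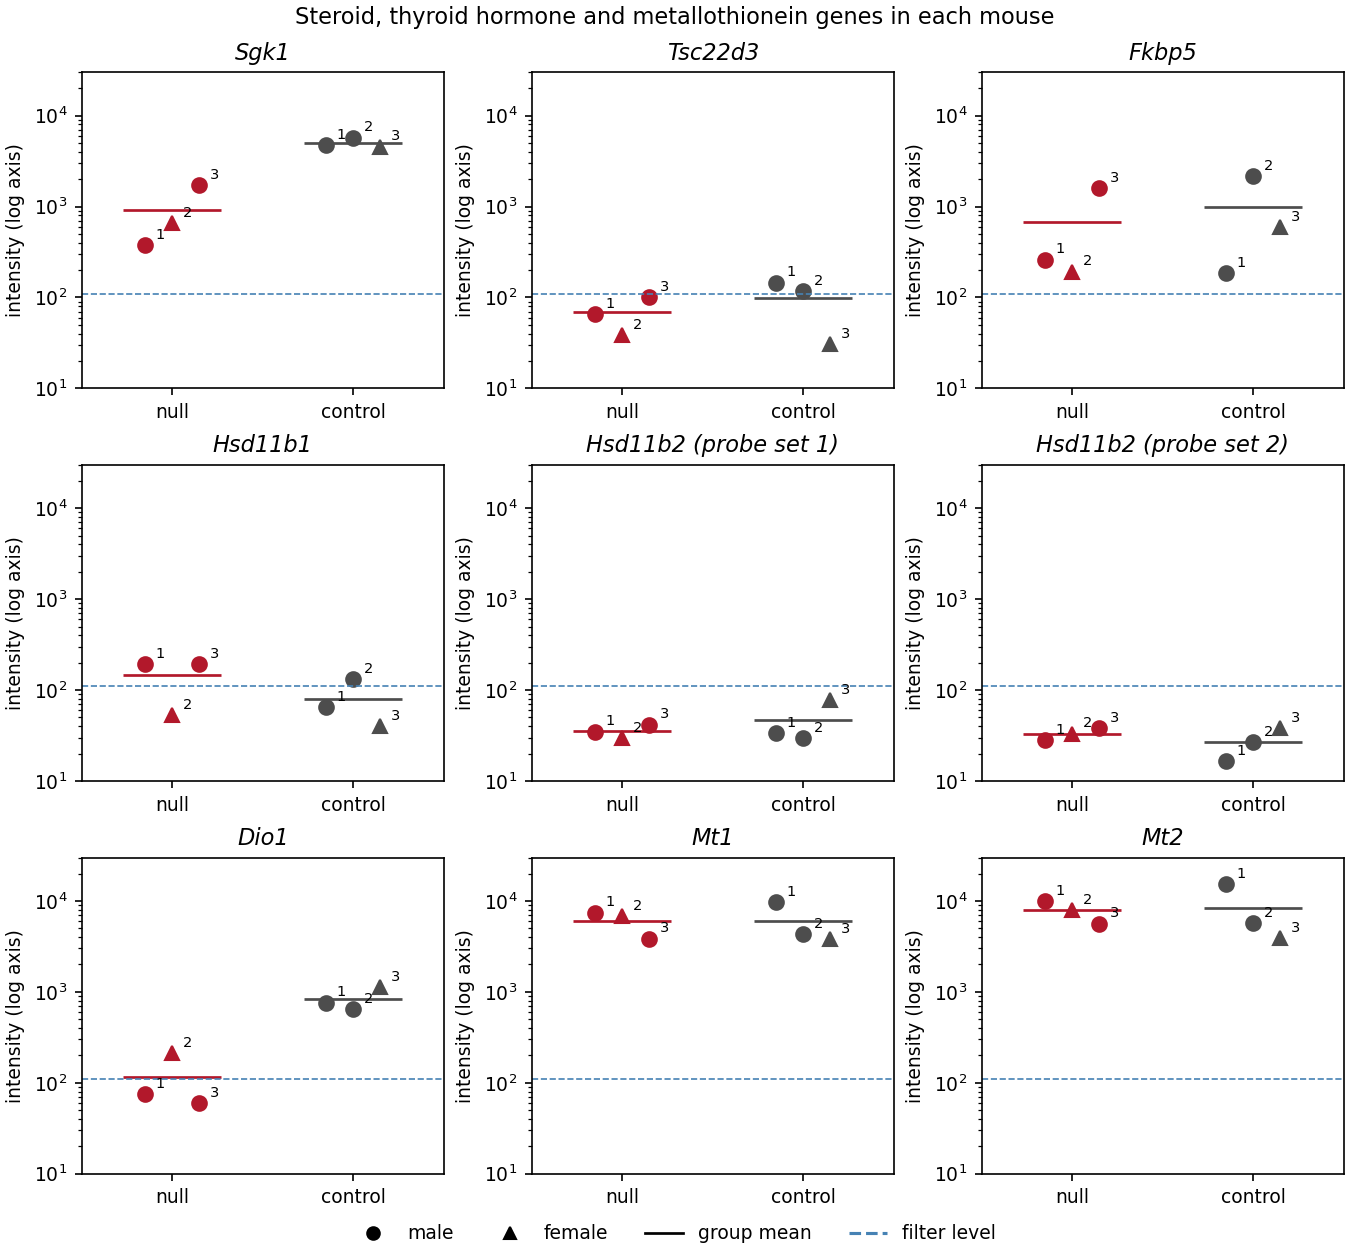
Intensity in arbitrary units (log axis) of the 9 probe sets in each mouse, null left of control; circles are males, triangles females, numbers the replicates, bars the group means and the dashed line the filter level of 109.7. Sgk1 and Dio1 are the 2 genes whose null and control values do not overlap, and Fkbp5 is high in null replicate 3 and control replicate 2.

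The summed levels of several marker lists lay apart between the genotypes, though few single markers passed the threshold. The mast cell markers (6 of 6 on the array) summed to 4549.9 to 12164.6 in null and 768.6 to 955.8 in control mice. Of the 5 tested, 3 rose: Mcpt1, Mcpt2 and Cpa3. Cpa3 was at 263.4, 136.1 and 340.2 in null replicates 1 to 3, against 30.6, 25.6 and 13.5 in control replicates 1 to 3. Only null mice took it past the filter, so it entered the fit through the group where it was high. Nothing is read from its call. Most of each null sum came from Mcpt1 and Mcpt2, and the probe set name of Mcpt1 marks possible cross-hybridization. Kit and Tpsb2 did not rise (log2 change -0.04 and -0.38). Cma1, too dim to test, was at 70.8 in null and 87.8 in control mice. Of the goblet and Paneth cell markers, 3 of 6 were on the array: Tff3, Zg16 and Fcgbp. They summed to 40416.1 to 45333.4 in null and 47249.1 to 56025.6 in control mice, with 0 of 3 past the threshold. The listed Paneth cell genes, Lyz1 and Defa1, were not among them, so the sum does not assess Paneth cells. The log2 changes were -0.05 for Tff3, -0.40 for Zg16 and -0.36 for Fcgbp. The fibroblast markers (6 of 6) summed to 11388.6 to 12496.8 in null and 9261.5 to 10285.2 in control mice, with 0 of 6 past it. The neutrophil and macrophage markers (8 of 8) summed to 6374.8 to 6676.9 in null and 7354.8 to 9819.3 in control mice, and 1 of the 4 tested, the lysozyme gene Lyz2, fell (3687.4 ± 216.3 in null and 6598.0 ± 1341.7 in control mice). Cd14 and Cd68 lay higher in every null mouse than in any control but did not pass (limma adjusted p = 0.122 and 0.397). S100a8 and S100a9, too dim to test, also lay higher in every null mouse. Lyz2 was by far the brightest of the 8, and the lower null sums came from it. Of the 7 enterocyte markers tested, 0 passed, though each had a log2 change below 0. Lct was at 714.5, 4815.5 and 569.1 in null replicates 1 to 3, against 11317.3, 10927.9 and 10865.6 in control replicates 1 to 3. Its log2 change was -3.12 (limma adjusted p = 0.0606), and that of Fabp2 was -1.31 (limma adjusted p = 0.0938). Those of the other enterocyte markers lay between -0.66 and -0.12. No marker was at 0, and the part of these shifts in the falls of Sgk1 and Dio1 was not tested. The summed ranges of fat, pancreas, liver and kidney markers overlapped between the genotypes.

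Fkbp5 varied between mice more than between genotypes. It was at 260.0, 192.1 and 1585.4 in null replicates 1 to 3, against 185.5, 2159.3 and 597.9 in control replicates 1 to 3. Null replicate 3 and control replicate 2 stood high, and the groups overlapped widely. The highest of the 6 values was 11.6 times the lowest. The log2 change of -0.52 (SE 0.98) was smaller than its error, and it was 0.01 in males and -1.58 between the 2 females. The SD between mice of the same genotype was 1.67 on the log2 scale, above that of 99.9% of the probe sets tested, whose median was 0.21.

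Tsc22d3 was dim. It was at 66.0, 38.8 and 100.2 in null replicates 1 to 3, against 145.2, 116.6 and 30.4 in control replicates 1 to 3. Both means (68.3 ± 30.8 in null and 97.4 ± 59.8 in control, SD, n = 3 each) lay under the filter level, so no fold is given. The 2 females had the lowest value of their genotypes. Its highest values were not in the same mice as those of Fkbp5 among controls, where control replicate 1 led.

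Hsd11b1, the activating enzyme, was at 194.0, 53.4 and 192.6 in null replicates 1 to 3, against 65.3, 132.0 and 39.9 in control replicates 1 to 3. The groups overlapped, and the female of each genotype was its lowest. The mean was 146.7 ± 80.8 in null mice, against 79.1 ± 47.6 in control mice, where it lay under the filter level (SD, n = 3 each). The log2 change was 0.75 (SE 0.55), at least 1.15-fold higher and not past the threshold. Its partner for cofactor supply, H6pd, was at 1811.5 ± 102.1 in null and 1544.1 ± 0.9 in control mice (limma log2 change 0.23, adjusted p = 0.315).

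Hsd11b2, the inactivating enzyme, was near the floor in all mice. Its first probe set was at 35.0, 29.5 and 41.8 in null replicates 1 to 3, against 33.4, 29.4 and 77.7 in control replicates 1 to 3. Its second was at 28.3, 33.1 and 38.5 in null replicates 1 to 3, against 16.7, 26.7 and 38.0 in control replicates 1 to 3. No value reached 109.7 and no difference could be read at this level.

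Mt1 and Mt2 were bright and did not separate the genotypes. Mt1 was at 7425.7, 6874.3 and 3846.6 in null replicates 1 to 3, against 9767.0, 4347.5 and 3819.8 in control replicates 1 to 3. Mt2 was at 9931.4, 8000.9 and 5645.4 in null replicates 1 to 3, against 15232.7, 5676.3 and 3922.1 in control replicates 1 to 3. Control replicate 1 had the highest value for both genes, and the groups overlapped. The log2 changes were 0.09 (SE 0.38) for Mt1 and 0.13 (SE 0.46) for Mt2, smaller than their errors.

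The 2 metallothionein genes, neighbours on chromosome 8 with 0 other annotated genes starting between them (RefSeq, GRCm38.p6), had nearly the same profile over the mice. Likeness was measured as the root mean square difference between 2 log2 profiles over the 6 mice, each centred on its own mean, over 6816 tested probe sets with 1 symbol. That difference was 0.20 between Mt1 and Mt2. Only the dim phospholipase gene Pla2g6 was nearer to either, at 0.16 to Mt2 and 0.18 to Mt1. The 2 genes are alike in sequence, and cross-hybridization between their probe sets was not tested.

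**Figure D2:**
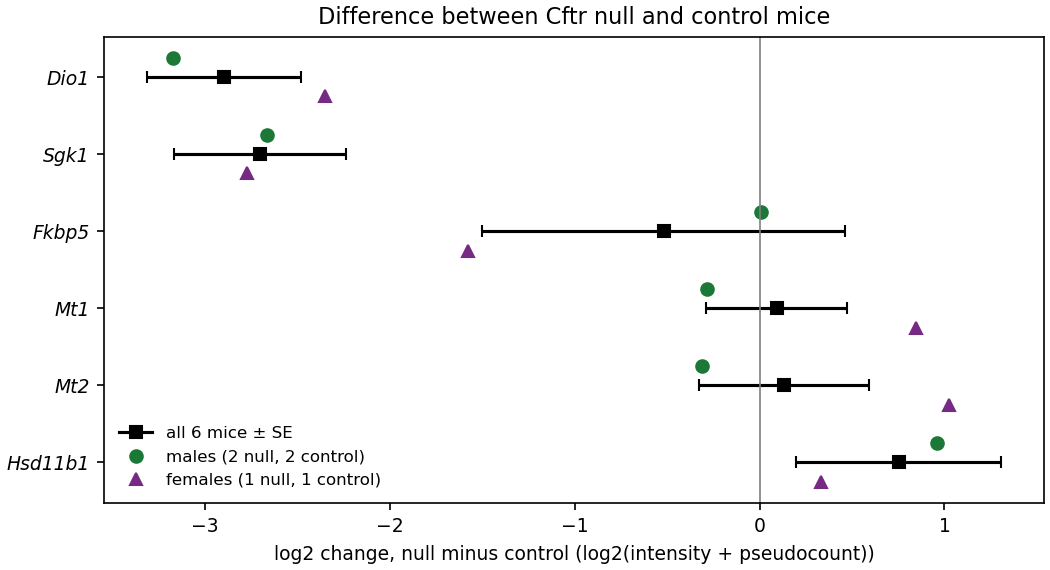
Log2 change, null minus control, of the 6 probe sets that passed the filter; squares are the fit over all 6 mice with SE, circles the 2 null and 2 control males, triangles the 2 females. Dio1 (-2.90) and Sgk1 (-2.70) lie far below 0 in both sexes, and the intervals of Fkbp5, Mt1 and Mt2 cross 0.

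A wide spread between mice of the same genotype, as an SD pooled over both genotypes, was common to the 6 tested genes. The within-genotype SD on the log2 scale was 0.78 for Sgk1, 0.68 for Dio1, 0.85 for Hsd11b1, 0.63 for Mt1 and 0.77 for Mt2. These lay above the SD of 97.0%, 95.6%, 98.0%, 94.6% and 97.0% of all tested probe sets, in the same order. By this pooled SD each of the 6 genes varied more than at least 94.6% of the array's tested probe sets did. The spread was not always shared by both genotypes. Sgk1 ran from 378.6 to 1726.2 in null and from 4561.9 to 5728.7 in control mice, so most of its spread lay among the nulls. Dio1 ran from 59.4 to 210.0 in null mice, around the filter level, and from 640.7 to 1121.4 in control mice. The SD also pools males and females, so differences between the sexes are part of it. The comparison is with probe sets of all levels, and Hsd11b1, at a mean of 112.9 over the mice, lay near the filter level.

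**Figure D3:**
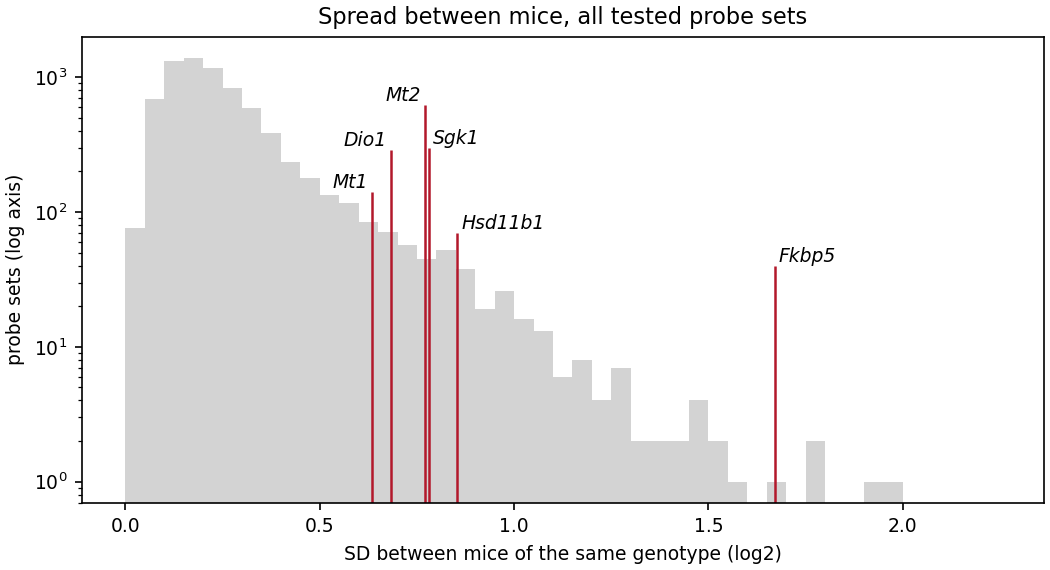
Number of tested probe sets (log axis) by the SD of log2(intensity + 12) between mice of the same genotype, pooled over both genotypes, with the 6 tested genes as red lines. All 6 lie in the upper tail, from Mt1 at 0.63 to Fkbp5 at 1.67, against a median of 0.21.

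Sex was balanced over genotype, so the difference between females and males does not depend on the contrast by which the genes were chosen. Dio1 was at 210.0 in the null female and 1121.4 in the control female, against 74.9 and 59.4 in null males and 761.2 and 640.7 in control males. The female was higher within each genotype, with a log2 difference, female minus male, of 1.08 (SE 0.23; limma unadjusted p = 0.00188, adjusted p = 0.707). Hsd11b1 was at 53.4 in the null female and 39.9 in the control female, against 194.0 and 192.6 in null males and 65.3 and 132.0 in control males. Both females lay below all 4 males. The 3 values that took Hsd11b1 past the filter were all from males, so it entered the fit through the sex in which it was high, and its difference of -1.34 (SE 0.37) is given without a p-value. Females and males did not overlap in 11.4% of the tested probe sets.

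In that fit 0 of the 6 genes passed after adjustment, against 0.0263% of all probe sets. An unadjusted p under 0.05 was reached by Dio1 and by Hsd11b1, which the filter had let in through males, and by 4.97% of all probe sets. Nothing is read from that count. For Sgk1, Fkbp5, Mt1 and Mt2 the log2 differences, female minus male, were -0.25 (SE 0.51), -0.90 (SE 1.04), -0.20 (SE 0.42) and -0.57 (SE 0.47). The interaction of genotype and sex in limma also passed for 0 of the 6 genes. There, 0 of the 6 had an unadjusted p under 0.05, and 0% of all probe sets passed with 3.10% under 0.05 unadjusted. The fall of Sgk1 was -2.67 on the log2 scale in males and -2.78 between the females. That of Dio1 was -3.17 in males and -2.35 between the females.

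The genes whose profile over the 6 mice was nearest to that of Sgk1 were Pmp22, a membrane protein of myelin and epithelia (root mean square difference 0.41), Rufy3 (0.44) and Pdk4, a kinase that restrains pyruvate dehydrogenase (0.52). Next came Aadac, an esterase of lipid and drug metabolism (0.54), and Crat, carnitine acetyltransferase (0.55). Pmp22 was at 313.3, 494.5 and 775.6 in null replicates 1 to 3, against 2647.3, 2096.8 and 3053.9 in control replicates 1 to 3. Like Sgk1 it was lowest in null replicate 1 and overlapped in no mouse between the groups. The genes were picked for likeness to Sgk1, so nothing is read from such shared features. The probe set names of Rufy3 and Crat mark possible cross-hybridization.

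The lists for Dio1 and Fkbp5 were drawn up after the values were seen. Genes in them were picked for likeness, so a shared pattern over the mice follows from the choice. Nearest to Dio1 were the brush border scaffold gene Pdzk1 (0.41), the retinol dehydrogenase gene Rdh7 (0.43), Bst1 (0.48), lactase, Lct (0.54), and the lipid transporter Abca1 (0.55). Among nulls Pdzk1 was also highest in null replicate 2, at 1041.6, against 588.0 and 332.3 in null replicates 1 and 3. The difference between Dio1 and Sgk1 was 0.98, which placed Sgk1 66th among the genes nearest to Dio1.

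Nearest to Fkbp5 were the inducible heat shock gene Hspa1a (0.72), the corepressor gene Tle1 (0.77), the adaptor subunit gene Ap2b1 (0.78), the nuclear receptor gene Hnf4g (0.80) and the guanylin receptor gene Gucy2c (0.81). Hspa1a was at 167.5, 192.3 and 893.4 in null replicates 1 to 3, against 223.3, 577.5 and 246.2 in control replicates 1 to 3. Hspa1a was picked for its likeness to Fkbp5, so its high values in null replicate 3 and control replicate 2 follow from the choice. The same mice led their genotypes in the dim transcription factor gene Zbtb16, another glucocorticoid target, named after its values were seen. Its brighter probe set was at 42.3, 21.6 and 134.6 in null replicates 1 to 3, against 46.2, 602.0 and 70.5 in control replicates 1 to 3.

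This order was counted after it had been seen in Fkbp5. Null replicate 3 and control replicate 2 were each the highest of their genotype in 18.3% of all tested probe sets. Among the 32 glucocorticoid-induced genes tested (the members left out), 5 had this order (15.6%): Klf9, Klf13, Errfi1, Bcl6 and Cyp7b1. Among 17 receptors and their chaperones 8 had it (47.1%), including the glucocorticoid receptor gene Nr3c1 and the heat shock genes Hsp90aa1, Hspa8 and Dnajb1. So did 7 of 18 Sgk1 partners (38.9%), 8 of 22 genes of thyroid hormone response (36.4%), 3 of 12 of steroid synthesis (25%) and 3 of 25 of metal handling (12%). Sgk1 and Fkbp5 were the 2 of the 6 members with it.

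**Figure D4:**
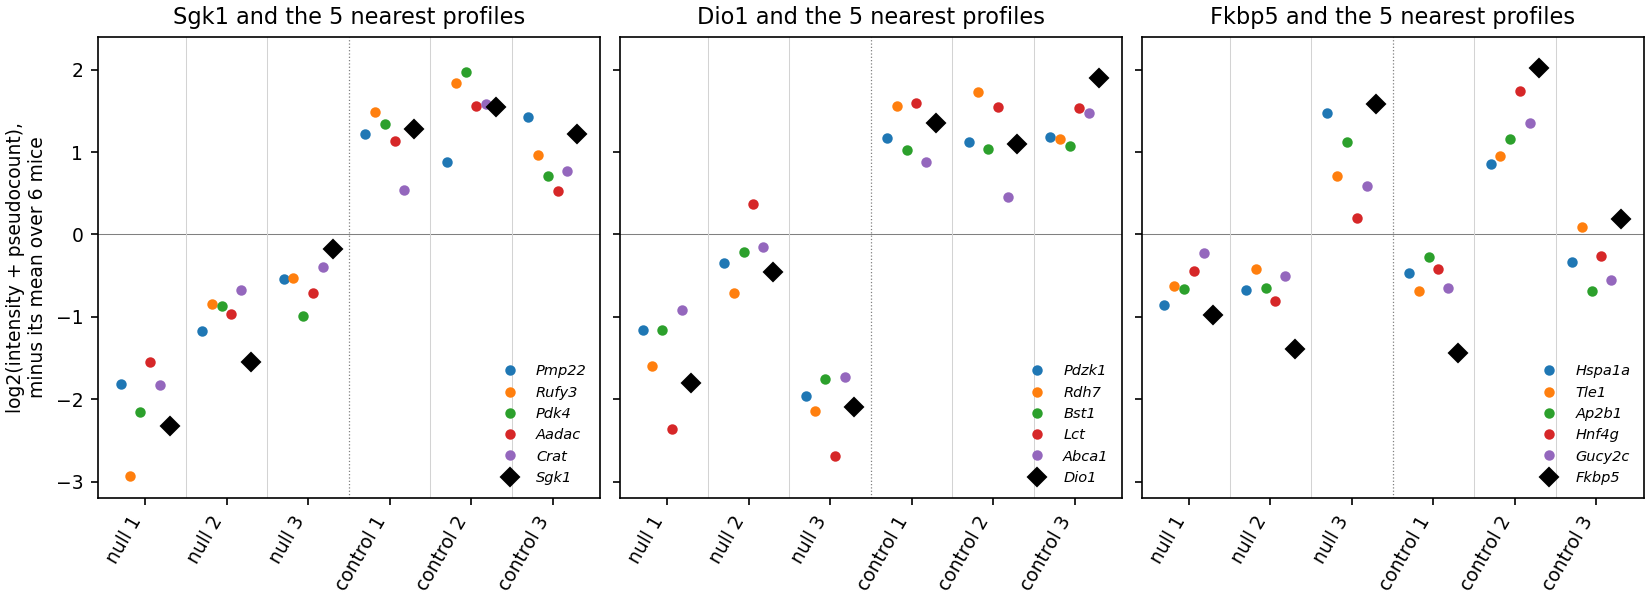
Log2(intensity + 12) in each mouse, minus the mean over the 6 mice, for Sgk1, Dio1 and Fkbp5 (black diamonds) and the 5 genes with the nearest profile to each (coloured circles). Sgk1 and Dio1 and their neighbours split by genotype, and the Fkbp5 set is high in null replicate 3 and control replicate 2. The neighbours were picked for likeness, so the shared patterns follow from the choice.

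Of the related genes outside the 8, the receptors themselves did not pass. Nr3c1 was at 118.7, 167.3 and 224.5 in null replicates 1 to 3, against 159.5, 271.2 and 123.5 in control replicates 1 to 3 (limma log2 change -0.08, adjusted p = 0.926). The thyroid hormone receptor gene Thra was at 837.4 ± 175.8 in null and 1300.7 ± 220.3 in control mice (SD, n = 3 each; limma adjusted p = 0.149), with no overlap between the groups. Thrb was at 140.9 ± 41.8 in null and 170.8 ± 77.4 in control mice (limma adjusted p = 0.79). The mineralocorticoid receptor gene Nr3c2 was listed too, but it is not among the 17 receptors and chaperones tested. Of 17 receptors and chaperones tested, 1 rose and 0 fell (5.88%, against 3.0% of all probe sets). It was Bag1, a co-chaperone of Hsp70, at 1146.1 ± 40.3 in null and 678.3 ± 129.5 in control mice (1.70-fold, limma adjusted p = 0.0416). This list and those below were chosen with earlier results of these data known, so nothing is read from their shares. The Bag1 call ended when any mouse but control replicate 3 was left out, and also with males only, without a filter or variance trend, and under quantile or equal-median scaling.

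Of 32 glucocorticoid-induced genes tested, 1 rose and 2 fell (9.38%, against 3.0% of all probe sets). Their median log2 change was -0.10, beside 0.03 over all probe sets tested. Tat, the hepatic enzyme of tyrosine breakdown and a classic glucocorticoid target, was at 375.9, 577.0 and 1502.4 in null replicates 1 to 3, against 81.3, 28.0 and 137.8 in control replicates 1 to 3. It was at least 5.77-fold higher (limma adjusted p = 0.0372), the opposite direction to Sgk1. Pck1, of gluconeogenesis, was at 77.8, 150.4 and 81.4 in null replicates 1 to 3, against 612.0, 1825.3 and 577.6 in control replicates 1 to 3. It was at least 7.21-fold lower (limma adjusted p = 0.0151), and Pdk4 at least 6.39-fold lower (limma adjusted p = 0.0169). Tat, Pck1 and Pdk4 also answer to other signals such as fasting or insulin.

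The other 29 did not pass. Among them the clock gene Per1 was at 33.7, 48.7 and 132.8 in null replicates 1 to 3, against 55.9, 232.2 and 239.2 in control replicates 1 to 3 (limma adjusted p = 0.404). Angptl4, an inhibitor of lipoprotein lipase, did not pass by its brightest probe set (log2 change -0.80, limma adjusted p = 0.22). A dimmer probe set for it fell (log2 change -1.30, limma adjusted p = 0.0151). The names of both probe sets mark possible cross-hybridization. Another, without such a mark, did not pass (log2 change -0.17, limma adjusted p = 0.788). Without null replicate 1, 0 of the 32 genes passed, and 1 passed without control replicate 1 or without null replicate 3.

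Of 18 Sgk1 partners and aldosterone-regulated transport genes tested, 0 passed in limma, against 3.0% of all probe sets. Their median log2 change was -0.26, beside 0.03 over all probe sets tested. The exchanger scaffold gene Slc9a3r1 was at 9220.9 ± 1197.4 in null and 13104.8 ± 2063.3 in control mice (limma adjusted p = 0.141), and the glucose transporter gene Slc5a1 at 7691.9 ± 515.1 in null and 9626.1 ± 1835.4 in control mice (limma adjusted p = 0.372). Ndrg1, whose product is a substrate of the kinase and which was named after its values were seen, was at 914.8, 712.6 and 877.1 in null replicates 1 to 3, against 1502.0, 2644.4 and 1187.6 in control replicates 1 to 3. Its groups did not overlap, but it did not pass (log2 change -1.0, limma adjusted p = 0.107). The mRNA of a substrate is no measure of the kinase's activity.

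Of 12 genes of steroid synthesis and interconversion tested, 3 fell and 0 rose (25%, against 3.0% of all probe sets), with a median log2 change of 0.01. Hsd17b11, a lipid droplet dehydrogenase, was at 3364.8 ± 557.3 in null and 9298.7 ± 1227.6 in control mice (2.77-fold lower, limma adjusted p = 0.0045). Hsd17b4, at 1299.2 ± 132.6 in null and 3486.0 ± 897.4 in control mice (2.61-fold lower, limma adjusted p = 0.0151), is best known as an enzyme of peroxisomal fatty acid oxidation. Hsd17b2, which inactivates estradiol and testosterone, was at 250.3 ± 26.9 in null and 493.3 ± 74.3 in control mice (1.92-fold lower, limma adjusted p = 0.0225). When control replicate 1 or either of null replicates 1 and 3 was left out, 1 of the 12 passed. The first enzyme of steroid synthesis, Cyp11a1, was at most 74.2 in any mouse and was too dim to test.

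Of 22 genes of thyroid hormone supply and response tested, 2 fell and 0 rose (9.09%, against 3.0% of all probe sets). The median log2 change was -0.23. Akp3, an alkaline phosphatase of the brush border, was at 1512.6 ± 219.4 in null and 5904.8 ± 1414.5 in control mice (3.84-fold lower, limma adjusted p = 0.00398). Slc7a8, an amino acid carrier that also takes up thyroid hormones, was at 320.8 ± 51.8 in null and 741.4 ± 180.8 in control mice (2.23-fold lower, limma adjusted p = 0.0287). Without null replicate 1, without null replicate 3, or without a variance trend, 1 passed. Lct had the lowest log2 change of the 22 genes, -3.12, but did not pass (limma adjusted p = 0.0606). Dio2, the other activating deiodinase, was at 6.0, 8.3 and 35.1 in null replicates 1 to 3, against 51.5, 43.4 and 11.4 in control replicates 1 to 3, too dim to test.

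Of 25 genes of metal handling tested, 1 rose and 0 fell (4.0%, against 3.0% of all probe sets), and the median was -0.08. It was glutathione reductase, Gsr, at 4247.5 ± 886.1 in null and 1679.2 ± 270.0 in control mice (2.5-fold higher, limma adjusted p = 0.0145), and it did not pass without control replicate 1 or null replicate 1. Mtf1, the metal-sensing transcription factor of metallothionein genes, was at 267.7, 256.2 and 221.9 in null replicates 1 to 3, against 125.7, 98.7 and 174.7 in control replicates 1 to 3. Its groups did not overlap but it did not pass (limma log2 change 0.87, adjusted p = 0.0938). The zinc exporter gene Slc30a1, another target of that factor, was at 188.4 in null and 188.5 in control mice. Both genes were named after their values were seen.

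**Figure D5:**
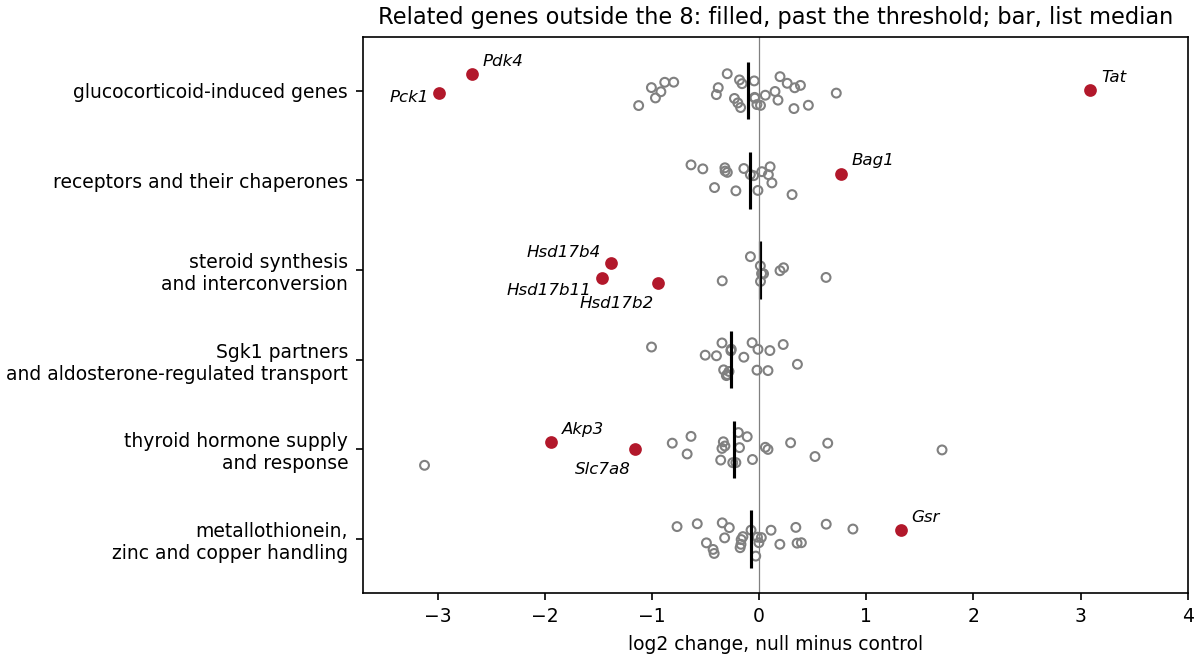
Log2 change, null minus control, of the related genes outside the 8, 1 point per gene and 1 row per list; filled points passed the threshold, open ones did not, and bars are list medians. The 10 filled points are Tat, Bag1 and Gsr above 0 and Pck1, Pdk4, Hsd17b2, Hsd17b4, Hsd17b11, Akp3 and Slc7a8 below it.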

How the data were processed

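Total RNA was prepared with TRIzol, per the labels. The deposited values are scaled probe set intensities on a linear scale, all above 0. The authors' software and background steps are not given in the sources used here. Control probe sets (66) were set aside, and symbols came from the platform annotation. Values were used as deposited and turned into log2(intensity + 12), the added 12 being the 10th percentile of the table. The filter level of 109.7 is the 40th percentile of all values.

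The limma package 3.58.1 in R 4.3.3 tested null against control on both sides, with moderated variances that follow the mean level, and p-values were adjusted after Benjamini and Hochberg over 7601 probe sets. The p-values set the difference between groups against the spread between single mice, moderated over all probe sets. Sex was tested with genotype and sex as terms, and their interaction in a further fit. Where the lower group's mean lay under the filter level the fold is a bound against that level. A gene in a list is its brightest tested probe set. The genes, the lists and the rule for named genes (up to 4 members past the threshold a list, otherwise the 2 brightest; the 5 profiles nearest to Sgk1; the receptors) were chosen with earlier results of these data known. Other list genes were named after their values were seen, among them H6pd, Per1, Angptl4, Lct, Dio2 and Cyp11a1. The functions were tested on simulated data. For null against control, 92.4% of 4-fold changes were recovered, for sex 96.8% of 8-fold and for the interaction 83.0% of 16-fold differences, each over 7601 probe sets.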

Additional observations from a re-analysis of the deposited data

Results flagged for a closer look

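In 3 probe sets both null males lay on one side of both control males, and the null female lay on the other side of the control female. All 3 were too dim to be tested, with most or all values under 109.7, so the values are given as measured and no difference between the sexes can be read from them. The log2 change also had opposite signs in males and females for Mt1 (-0.29 and 0.85), Mt2 (-0.31 and 1.03) and Fkbp5 (0.01 and -1.58), but there the null and control males overlapped. Tsc22d3 was at 66.0 and 100.2 in null males and 145.2 and 116.6 in control males, but at 38.8 in the null female and 30.4 in the control female. The log2 change in females was 0.86 above that in males. The first Hsd11b2 probe set was at 35.0 and 41.8 in null males and 33.4 and 29.4 in control males, but at 29.5 in the null female and 77.7 in the control female, a difference of -1.33 on the log2 scale. The second was at 28.3 and 38.5 in null males and 16.7 and 26.7 in control males, but at 33.1 in the null female and 38.0 in the control female, a difference of -0.59.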

How the results depend on the processing

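The number of mice, 3 a genotype, limits every value. The labels give no replicate numbers, and those used here only tell the mice apart. The sample titles are codes of unstated meaning, so whether mice shared a litter, cage or day is not known. No paired analysis was therefore possible. The 2 member probe sets past the threshold for null against control, Sgk1 and Dio1, stayed 2 under 8 of 10 alternatives. These were quantile normalization, equal medians, pseudocounts of 3 and 48, no filter, a filter at 288.7, sex as a covariate and robust variance. The count was 1 with males only and 1 without a variance trend, Sgk1 being lost each time. It was 0 to 2 when single mice were left out. The log2 change of Sgk1 lay between -3.29 and -2.21 without single mice and between -2.72 and -2.64 under the other alternatives, and that of Dio1 between -3.40 and -2.58 and between -3.17 and -2.53. The 10 list genes past the threshold numbered 7 to 11 under the alternatives, averaging all tested probe sets per gene included, and 2 to 10 when single mice were left out. For sex, 0 members passed under all 8 alternatives and with each mouse left out, and for the interaction 0 under all 8. No called member changed direction under any alternative run. Over all probe sets, 86 rose and 142 fell, against 50 and 85 with males only and 49 and 92 without a variance trend, and 17 and 35 without null replicate 1.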
